A study of Mus musculus with 8 samples.

Results

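The MEIS, PBX and PKNOX genes examined here are 8 homeodomain genes, Meis1, Meis2, Meis3, Pbx2, Pbx3, Pbx4, Pknox1 and Pknox2, taken by gene symbol from a table of 24421 genes. The table gives messenger RNA in FPKM (fragments scaled by transcript length and library size) for mouse embryonic stem cells with and without HIRA, a chaperone that places the histone variant H3.3 into chromatin. The 8 libraries form 4 groups of 2: Hira-null cells at day 15 of hanging drop differentiation, WT cells (W9.5) at day 15, undifferentiated Hira-null cells at day 0 and undifferentiated WT cells at day 0. Cells of both genotypes carry HA-tagged H3.3, the mutant is a single clone, and the day 15 material is whole cultures containing beating foci, so no cell type was sorted. Each library came from its own biological sample. The p-values therefore rest on the spread between 2 samples of 1 line in each group, pooled over the 4 groups and moderated over all tested genes.

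MEIS, PBX and PKNOX proteins belong to the TALE class of homeodomain proteins, named for a loop extension of a few residues in the homeodomain. PBX proteins bind DNA together with HOX proteins and sharpen their choice of site. MEIS and PKNOX (also called PREP) proteins pair with PBX away from DNA and carry it into the nucleus, and MEIS proteins also contact posterior HOX proteins directly. In the embryo these cofactors act in the hindbrain, limb, blood and heart, where loss of Meis1 or of Pbx genes in mice causes defects of the outflow tract and septum.

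The transcript that the mutation targets was checked first. Hira stood at 16.7 and 19.8 FPKM in the day 15 libraries labelled Hira-null, against 15.8 and 15.5 FPKM in day 15 WT libraries. At day 0 it stood at 12.4 and 11.4 FPKM in Hira-null libraries, against 27.3 and 28.5 FPKM in WT libraries. The day 15 difference did not pass the test (log2 fold change 0.20, SE 0.11, adjusted p = 0.167), while at day 0 Hira RNA was lower in Hira-null cells (-1.17, SE 0.10, adjusted p = 8.48e-05), and the day 15 libraries are named below by their label. The values cover the whole gene, and its single exons were not examined. Hira shares exons with Gm15797 on the same strand, which has no FPKM values under that name. How the counting treated fragments of the shared exons was not examined. The steps of the FPKM values gave between 6910498 and 11092757 counted fragments in a library.

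Gene positions are given in the NCBIM37 build. The 3 MEIS genes lie on different chromosomes. Meis1 spans chr11:18780433-18918961 on the minus strand and shares exons with Gm16140 on the other strand. Meis2 spans chr2:115688800-115891575 (minus strand) and Meis3 spans chr7:16760729-16771853 (plus strand). Pbx2 lies at chr17:34728211-34734345 (plus) and shares exons with Gpsm3 on the same strand. Pbx3 lies at chr2:34026977-34228660 (minus), Pbx4 at chr8:72356523-72397062 (plus), Pknox1 at chr17:31701718-31744638 (plus) and Pknox2 at chr9:36698570-36954899 (minus). The sources name no strand setting for the counting, so fragments of Meis1 and of its antisense neighbour cannot be told apart. Gm16140 has no FPKM values under that name.

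The promoters of the MEIS genes are shown because these genes differed in direction between the genotypes at day 15. They are RefSeq sequences of the GRCm38.p6 build from 250 bases before to 50 bases after the transcript start, found for 5 of the 8 genes (Meis1, Meis2, Meis3, Pbx2 and Pbx4). They lie at chr11:19018920-19019219 (minus strand), chr2:116064570-116064869 (minus strand) and chr7:16175145-16175444 (plus strand), and each is written 5′ to 3′ on the strand of its gene. Capitals mark a match to TNAAGTG, the core motif of the cardiac factor NKX2-5, read here on the opposite strand.
Meis1: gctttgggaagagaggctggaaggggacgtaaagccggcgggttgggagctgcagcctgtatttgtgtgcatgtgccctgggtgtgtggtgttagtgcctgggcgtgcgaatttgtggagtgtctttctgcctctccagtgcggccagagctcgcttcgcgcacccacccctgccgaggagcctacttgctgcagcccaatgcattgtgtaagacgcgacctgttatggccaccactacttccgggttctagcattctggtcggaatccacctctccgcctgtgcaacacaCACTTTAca
Meis2: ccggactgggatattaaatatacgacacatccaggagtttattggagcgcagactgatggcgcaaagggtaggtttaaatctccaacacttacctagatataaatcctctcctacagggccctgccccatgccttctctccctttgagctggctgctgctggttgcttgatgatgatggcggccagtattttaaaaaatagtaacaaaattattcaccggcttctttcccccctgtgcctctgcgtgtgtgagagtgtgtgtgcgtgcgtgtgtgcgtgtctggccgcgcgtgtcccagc
Meis3: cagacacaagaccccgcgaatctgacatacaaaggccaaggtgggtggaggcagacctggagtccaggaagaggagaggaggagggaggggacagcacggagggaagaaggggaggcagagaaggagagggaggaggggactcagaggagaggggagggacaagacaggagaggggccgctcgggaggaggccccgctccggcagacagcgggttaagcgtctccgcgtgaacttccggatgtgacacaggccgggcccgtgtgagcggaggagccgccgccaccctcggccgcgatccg
The Meis1 match spans bases 41 to 47 after the start. G or C made up 58.3% of the Meis1 promoter, 51.0% of the Meis2 promoter and 66.7% of the Meis3 promoter, with 15, 13 and 21 CG pairs. Both strands of the 5 promoters were searched for TGACAG (the MEIS and PREP site), TGATNNAT (the PBX and HOX site) and TNAAGTG, and only the Meis1 match was found. Among all 32851 promoters of the same length, 19.2% held TGACAG, 8.85% held TGATNNAT and 11.5% held TNAAGTG. A match describes the letters of the window and does not show binding.

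All 8 genes were at FPKM 1 or more in each of the 4 day 15 libraries and entered the test, which compared log2(FPKM + 1) across 14337 genes with p-values adjusted over all of them and a threshold of 0.05. At day 15, Meis1, Meis2 and Pbx3 RNA was lower than in WT in the libraries labelled Hira-null and Meis3 and Pbx2 RNA was higher, while Pbx4, Pknox1 and Pknox2 did not pass the test. That is 2 genes higher and 3 lower of 8, where 18.6% of all tested genes were higher and 18.8% lower (37.4% in either direction). At day 0, Pbx2 and Pknox2 were higher and Meis1 was lower in Hira-null than in WT cells, that is 2 higher and 1 lower of 8, against 20.8% of all tested genes higher and 19.4% lower (40.2% in either direction). Their median log2 fold change was -0.19 at day 15 and 0.05 at day 0, while all tested genes had a median of 0.01 on either day. In bulk cultures, fewer cells of a type and less RNA per cell cannot be told apart. With 2 libraries a group, values can lie apart without passing the test, as for Pbx3 at day 0 (adjusted p = 0.467). Non-overlap is therefore given as a description, and its share over all genes was not counted.

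**Figure D1:**
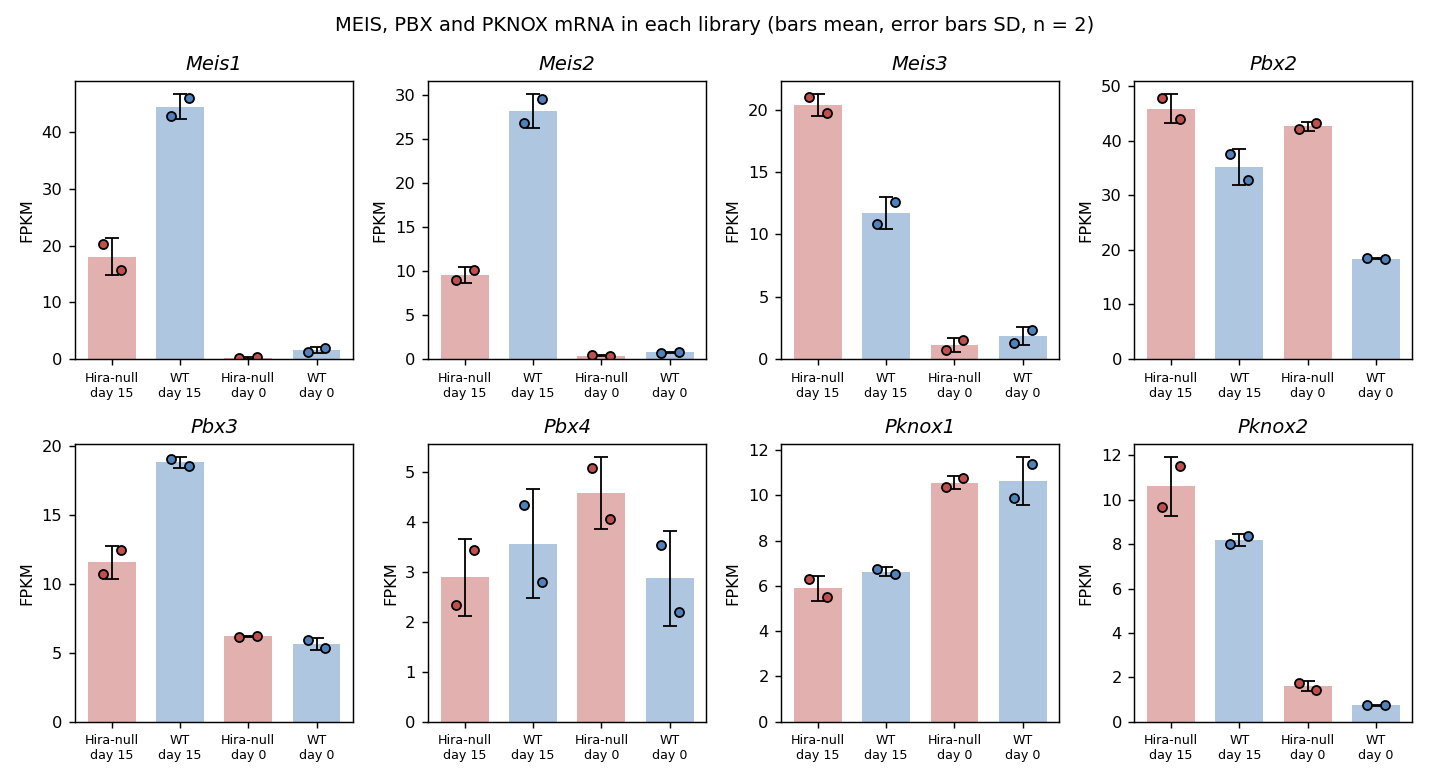
FPKM of 8 MEIS, PBX and PKNOX genes (vertical axes, linear and starting at 0, each gene on its own scale) in the 4 groups (horizontal axis). Bars are group means, error bars are SD, and points are the 2 libraries of a group. At day 15 both points of Meis1, Meis2 and Pbx3 lie lower for the label Hira-null than for WT, and both points of Meis3 and Pbx2 lie higher.

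Meis1, best known as a leukaemia gene and a regulator of heart muscle cell division, was the MEIS gene with the most RNA in differentiated WT cultures. It stood at 20.4 and 15.8 FPKM in day 15 libraries labelled Hira-null, against 42.9 and 46.1 FPKM in day 15 WT libraries. At day 0 it stood at 0.127 and 0.331 FPKM in Hira-null libraries, against 1.22 and 1.99 FPKM in WT libraries. Hira-null libraries were the lower ones on both days and the groups did not overlap.

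The Meis1 difference was a log2 fold change of -1.27 at day 15 (SE 0.19, adjusted p = 0.00120) and of -1.08 at day 0 (SE 0.18, adjusted p = 0.00204). In fragments scaled by library size, WT exceeded the libraries labelled Hira-null 2.49 times at day 15 (exact 95% interval 2.32 to 2.66). At day 0 only 13 fragments lay in the 2 Hira-null libraries, 3 and 10 of them, against 89 in the 2 WT libraries, and WT exceeded Hira-null cells 6.78 times (3.77 to 13.2). Ratios of fragments, here and below, are scaled by library size, and their intervals cover counting error only. From day 0 to day 15 Meis1 rose in both genotypes, with a log2 fold change of 3.95 in Hira-null (SE 0.19, adjusted p = 2.33e-07) and 4.14 in WT (SE 0.19, adjusted p = 3.00e-07). The genotype difference at day 15 minus that at day 0 was -0.19 (95% interval -0.79 to 0.41, adjusted p = 0.610), so no difference between the days was found on this scale. That value depends on how low FPKM is treated: it was 1.11 with a pseudocount of 0.1 (adjusted p = 0.106) and 1.46 on counted fragments (voom, adjusted p = 0.122).

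Meis2, which acts in neural crest, limb and forebrain development, showed the lowest day 15 fold change of the 8 genes. Its FPKM was 8.93 and 10.2 in day 15 libraries labelled Hira-null, against 26.8 and 29.5 in day 15 WT libraries. At day 0 its FPKM was 0.415 and 0.367 in Hira-null libraries, against 0.722 and 0.831 in WT libraries. Both groups were below FPKM 1 at day 0, and on neither day did the genotypes overlap.

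At day 15 the log2 fold change of Meis2 was -1.47 (SE 0.14, adjusted p = 1.45e-04). Scaled by library size, WT held 2.96 times the fragments of the libraries labelled Hira-null (2.75 to 3.19). The day 0 value was -0.35 (SE 0.14) and did not pass the test (adjusted p = 0.0691), although it passed with a pseudocount of 0.1 (-0.84, adjusted p = 0.0124). The 32 fragments in Hira-null and 65 in WT cells at day 0 gave WT 2.01 times the RNA of Hira-null cells (1.30 to 3.17). With differentiation Meis2 rose by a log2 fold change of 2.92 in Hira-null and 4.04 in WT (adjusted p = 2.34e-07 and 9.12e-08). The genotype difference at day 15 minus that at day 0 was -1.12 (95% interval -1.56 to -0.67, adjusted p = 0.00333). This last call was lost with a pseudocount of 0.1 (-0.72, adjusted p = 0.0884) and in the fit of counted fragments (-0.58, adjusted p = 0.420).

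Meis3, a less studied paralog expressed in the posterior neural plate of the frog, went the other way at day 15. It had 21.0 and 19.8 FPKM in day 15 libraries labelled Hira-null, against 10.8 and 12.6 FPKM in day 15 WT libraries. Before differentiation it had 0.739 and 1.54 FPKM in Hira-null libraries, against 1.30 and 2.34 FPKM in WT libraries. The genotypes did not overlap at day 15 and overlapped at day 0.

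The log2 fold change of Meis3 was 0.75 at day 15 (SE 0.23, adjusted p = 0.0317), with 666 fragments in libraries labelled Hira-null, 1.72 times the RNA of WT libraries with 443 (1.53 to 1.95). It was -0.40 at day 0 (95% interval -0.91 to 0.11, adjusted p = 0.193). The day 15 call rests on having all 4 libraries of that day. The adjusted p was 0.10 and 0.0758 without replicate 1 or 2 of those labelled Hira-null, and 0.249 and 0.147 without WT replicate 1 or 2, with fold changes of 0.65 to 0.85 over all alternatives tried. Meis3 rose with differentiation by 3.35 in Hira-null and 2.19 in WT (adjusted p = 1.76e-06 and 3.24e-05). Its genotype difference was 1.15 higher at day 15 than at day 0 (SE 0.32, adjusted p = 0.0238), a call that held in 9 of 17 alternatives.

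Because Meis1 and Meis2 were lower while Meis3 was higher, the make-up of MEIS RNA differed between the genotypes. The summed FPKM of the 3 genes was 50.3 and 45.7 in day 15 libraries labelled Hira-null, against 80.6 and 88.2 in day 15 WT libraries. Meis3 made up 41.8% and 43.3% of this sum in libraries labelled Hira-null, against 13.4% and 14.3% in WT libraries. Meis1 made up 40.5% and 34.5%, against 53.3% and 52.3%, and Meis2 made up 17.8% and 22.2%, against 33.3% and 33.5%. Each of these shares lay apart between the genotypes at day 15. The shares of a library add up to the whole, so they are not 3 separate results.

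The ratio of Meis3 to Meis1 RNA was 1.03 and 1.26 in day 15 libraries labelled Hira-null, against 0.252 and 0.274 in day 15 WT libraries. At day 0 the ratio was 5.82 and 4.66 in Hira-null libraries, against 1.06 and 1.17 in WT libraries. It was thus above WT in the libraries labelled Hira-null on both days, and lower at day 15 than at day 0 in both genotypes without overlap. The day 0 sums were small, 1.28 and 2.24 FPKM in Hira-null libraries against 3.25 and 5.16 FPKM in WT libraries, and rested on few fragments. Shares and ratios are described without a test.

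**Figure D2:**
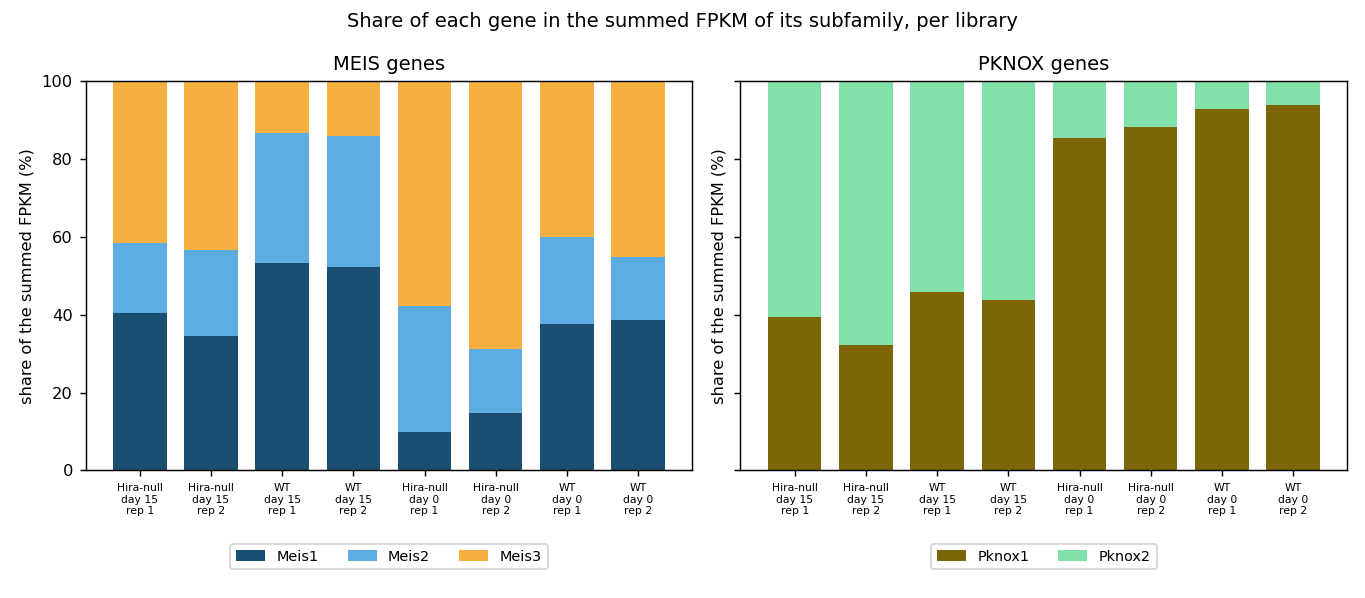
Share of each MEIS gene (left) and each PKNOX gene (right) in the summed FPKM of its subfamily (vertical axes, %), 1 bar per library. Meis3 takes 41.8% and 43.3% of MEIS RNA in day 15 libraries labelled Hira-null against 13.4% and 14.3% in WT libraries, and Pknox2 takes over 50% of PKNOX RNA in all day 15 libraries.

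Pbx2, a widely expressed PBX gene, had the most RNA of the 8 genes in every group except day 15 WT. It stood at 47.8 and 44.0 FPKM in day 15 libraries labelled Hira-null, against 37.6 and 32.9 FPKM in day 15 WT libraries. At day 0 it stood at 42.1 and 43.3 FPKM in Hira-null libraries, against 18.4 and 18.3 FPKM in WT libraries. The WT libraries of day 0 were the low ones, and the genotypes overlapped on neither day.

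The log2 fold change of Pbx2 was 0.37 at day 15 (SE 0.09, adjusted p = 0.0110) and 1.17 at day 0 (SE 0.09, adjusted p = 3.84e-05). Without WT replicate 2 of day 15 the day 15 call was lost (0.28, adjusted p = 0.104). At day 0 the Hira-null libraries held 2.33 times the fragments of the WT libraries (2.14 to 2.53), scaled by library size. Between the days Pbx2 rose in WT (0.90, SE 0.09, adjusted p = 2.20e-05), while in Hira-null the difference was 0.10 (95% interval -0.10 to 0.30, adjusted p = 0.319). The genotype difference at day 15 minus that at day 0 was -0.80 (SE 0.12, adjusted p = 0.00192). Gpsm3, the gene that shares exons with Pbx2, stood at 1.59 and 1.25 FPKM in day 15 libraries labelled Hira-null and 1.11 and 1.14 FPKM in day 15 WT libraries. At day 0 Gpsm3 stood at 7.05 and 7.12 FPKM in Hira-null libraries and 3.64 and 5.55 FPKM in WT libraries, and how the counting divided shared fragments was not examined.

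Pbx3, which is needed for hindbrain control of breathing in the mouse, had 10.7 and 12.4 FPKM in day 15 libraries labelled Hira-null, against 19.1 and 18.6 FPKM in day 15 WT libraries. Before differentiation it had 6.17 and 6.22 FPKM in Hira-null libraries, against 5.95 and 5.35 FPKM in WT libraries. The gap was wide at day 15 and narrow at day 0, without overlap on either day.

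At day 15 the log2 fold change of Pbx3 was -0.66 (SE 0.12, adjusted p = 0.00289). Scaled by library size, WT held 1.62 times the fragments of libraries labelled Hira-null (1.47 to 1.79). The day 0 value was 0.12 (95% interval -0.15 to 0.38, adjusted p = 0.467). Pbx3 rose with differentiation in both genotypes, by 0.80 in Hira-null (adjusted p = 2.19e-04) and by 1.58 in WT (adjusted p = 4.06e-06). The genotype difference at day 15 minus that at day 0 was -0.77 (SE 0.16, adjusted p = 0.00767). Each of these Pbx3 calls held under every alternative tried.

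Pbx4, described mainly in the testis, was low throughout. It had 2.33 and 3.43 FPKM in day 15 libraries labelled Hira-null, against 4.33 and 2.79 FPKM in day 15 WT libraries. At day 0 it had 5.08 and 4.06 FPKM in Hira-null libraries, against 3.53 and 2.20 FPKM in WT libraries. The genotypes overlapped at day 15 and not at day 0.

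No comparison of Pbx4 passed the test. Its log2 fold change was -0.23 at day 15 (95% interval -0.79 to 0.34, adjusted p = 0.509) and 0.54 at day 0 (-0.00 to 1.09, adjusted p = 0.106). Each library held 25 to 55 Pbx4 fragments. Without WT replicate 1 of day 0 the day 0 difference passed (0.79, adjusted p = 0.0442).

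The PKNOX genes encode the other partners that PBX proteins meet before binding DNA. Pknox1, which is needed in the early mouse embryo, had 6.29 and 5.51 FPKM in day 15 libraries labelled Hira-null, against 6.76 and 6.51 FPKM in day 15 WT libraries. In undifferentiated cells it had 10.3 and 10.8 FPKM in Hira-null libraries, against 9.90 and 11.4 FPKM in WT libraries. The genotypes overlapped at day 0 and lay close without overlap at day 15, and every day 15 library lay below every day 0 library.

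The log2 fold change of Pknox1 between genotypes was -0.15 at day 15 (95% interval -0.43 to 0.14, adjusted p = 0.387) and -0.01 at day 0 (-0.28 to 0.27, adjusted p = 0.979). With differentiation it fell in both genotypes, by a log2 fold change of -0.75 in Hira-null (adjusted p = 4.94e-04) and -0.61 in WT (adjusted p = 0.00194). It was the 1 gene of the 8 whose fall from day 0 to day 15 passed the test. Pbx4 was also lower at day 15 in Hira-null, without overlap, but did not pass (-0.53, adjusted p = 0.0778).

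Pknox2, the paralog found mainly in adult brain and muscle, had 9.67 and 11.5 FPKM in day 15 libraries labelled Hira-null, against 8.01 and 8.39 FPKM in day 15 WT libraries. In undifferentiated cells it had 1.76 and 1.44 FPKM in Hira-null libraries, against 0.765 and 0.733 FPKM in WT libraries. Libraries labelled Hira-null were the higher ones on both days, without overlap.

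The log2 fold change of Pknox2 was 0.33 at day 15 (95% interval -0.01 to 0.67, adjusted p = 0.119) and 0.57 at day 0 (SE 0.15, adjusted p = 0.0138). At day 0 there were 88 fragments in Hira-null and 42 in WT libraries, which put Hira-null at 2.12 times WT (1.45 to 3.13). The day 0 call was lost without Hira-null replicate 1 of that day (0.48, adjusted p = 0.0947), with quantile normalization (0.39, adjusted p = 0.0513) and in the fit of counted fragments (1.06, adjusted p = 0.0616). Pknox2 rose with differentiation by 2.15 in Hira-null and 2.39 in WT (adjusted p = 1.92e-06 and 1.59e-06). Its share of PKNOX RNA was 60.6% and 67.7% in day 15 libraries labelled Hira-null, against 54.2% and 56.3% in day 15 WT libraries. At day 0 the share was 14.6% and 11.8% in Hira-null libraries, against 7.18% and 6.05% in WT libraries.

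**Figure D3:**
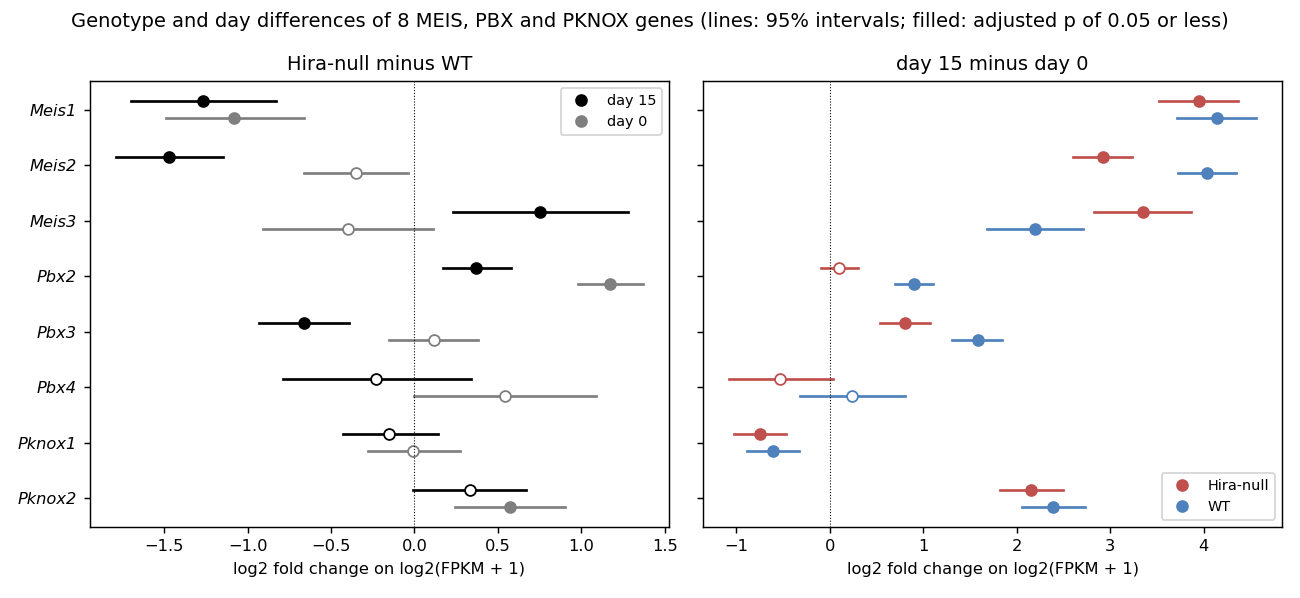
Log2 fold changes on log2(FPKM + 1) (horizontal axes) of 8 MEIS, PBX and PKNOX genes between genotypes (left, at day 15 and day 0) and between days (right, in Hira-null and WT). Points are fitted differences, lines are 95% intervals, and filled points passed the test. Meis2 lies at -1.47 at day 15 and at -0.35 at day 0 on the left. On this scale Meis1 shows the widest gain between days on the right, with 3.95 in Hira-null and 4.14 in WT. As a ratio of mean FPKM in WT, Meis2 rose more (36.3 times) than Meis1 (27.7 times).

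Between the days in Hira-null, 5 of the 8 genes rose and 1 fell past the test. Among all tested genes 37.5% rose and 36.4% fell (73.9% in either direction). In WT, 6 rose and 1 fell, where 36.1% of all tested genes rose and 33.4% fell (69.5% in either direction). Their median log2 fold change was 1.48 in Hira-null and 1.89 in WT, while all tested genes had medians of 0.01 and 0.03. The genotype difference changed between the days for 4 of the 8 genes, 1 higher (Meis3) and 3 lower (Meis2, Pbx2 and Pbx3), where 17.5% of all tested genes were higher and 17.7% lower (35.2% in either direction). The genotype comparisons and the day comparisons share libraries. The summed FPKM of a library was 481044 to 505172 at day 0 and 345294 to 355477 at day 15. Small day differences depend on this scale, and a scaling to equal sums was not run.

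The order of FPKM levels, which are scaled by gene length, differed between the groups. In day 15 libraries labelled Hira-null, Pbx2 led with a mean of 45.9 FPKM, followed by Meis3 (20.4), Meis1 (18.1), Pbx3 (11.6), Pknox2 (10.6), Meis2 (9.54), Pknox1 (5.90) and Pbx4 (2.88). There Meis3 and Meis1 overlapped, as did Pbx3 and Pknox2, and Pknox2 and Meis2. In day 15 WT libraries the order was Meis1 (44.5), Pbx2 (35.2), Meis2 (28.2), Pbx3 (18.8), Meis3 (11.7), Pknox2 (8.20), Pknox1 (6.63) and Pbx4 (3.56), with no overlap between neighbours. Meis1 thus stood above Pbx2 only in day 15 WT libraries, and Meis3 stood below Meis2 only there.

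At day 0, before differentiation, the PBX genes and Pknox1 stood above the MEIS genes. The Hira-null order was Pbx2 (42.7), Pknox1 (10.6), Pbx3 (6.20), Pbx4 (4.57), Pknox2 (1.6), Meis3 (1.14), Meis2 (0.391) and Meis1 (0.229), in which only Pknox2 and Meis3 overlapped. The WT order was Pbx2 (18.4), Pknox1 (10.6), Pbx3 (5.65), Pbx4 (2.86), Meis3 (1.82), Meis1 (1.61), Meis2 (0.777) and Pknox2 (0.749). Overlaps there were those of Pbx4 with Meis3, Meis3 with Meis1, and Meis2 with Pknox2.

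Markers of several cell types also differed between the genotypes at day 15. Beside the marker counts below, 18.6% of all tested genes were higher and 18.8% lower at day 15. At day 0 these shares were 20.8% and 19.4%. Of 10 neural progenitor markers 7 were higher and none lower under the label Hira-null, with summed levels of 1556 to 1738 FPKM against 870 to 928 FPKM in WT libraries. Of 10 neuron markers 9 were higher and none lower, with sums of 297 to 304 FPKM against 130 to 131 FPKM. Mesenchyme markers went the other way, 8 of 10 lower, with sums of 705 to 891 FPKM in libraries labelled Hira-null against 2077 to 2306 FPKM in WT libraries.

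Of 10 endothelium markers 7 were lower (26.3 to 28.8 FPKM in libraries labelled Hira-null against 59.5 to 61.4 FPKM in WT libraries), and of 9 tested visceral endoderm markers 8 were lower (7.75 to 8.07 FPKM against 146 to 153 FPKM). Of 7 tested blood markers 6 were lower (14.4 to 15.6 FPKM against 80.8 to 86.1 FPKM). The globin genes Hbb-bh1, Hba-x and Hba-a1 were at 0 in each library labelled Hira-null, and Hba-a1 in both WT libraries.

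Cardiomyocyte markers were higher for 1 and lower for 5 of 12, with sums of 169 to 171 FPKM in libraries labelled Hira-null against 260 to 265 FPKM in WT libraries, and all 12 were above 0. Of 9 tested neural crest markers 2 were higher and 5 lower, while their sums were 47.6 to 51.2 FPKM and 47.6 to 50.1 FPKM. Pluripotency markers were higher for 3 and lower for 5 of 10, with sums of 566 to 572 FPKM against 446 to 490 FPKM, and at day 0 higher for 6 and lower for 2 of 10, with sums of 4350 to 4360 FPKM in Hira-null against 2787 to 3035 FPKM in WT. Of the tested markers, 3 blood, 2 neural crest, 1 endothelium and 1 visceral endoderm genes reached FPKM 1 in day 15 WT libraries alone, and 1 neuron and 1 cardiomyocyte gene in day 15 libraries labelled Hira-null alone. The part of these shifts in the differences of Meis1, Meis2, Meis3, Pbx2, Pbx3, Pknox2 and the gene lists below was not tested.

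HOX genes encode the DNA-binding partners of these cofactors. At day 15, libraries labelled Hira-null had 21 of 33 tested HOX genes lower and 2 higher, with a median log2 fold change of -0.73. The other 10 did not pass the test, and 6 further HOX genes of the 39 listed were too low to enter it. Of the 33, 13 reached FPKM 1 in day 15 WT libraries alone, so they entered the test through the group in which they were high. With the stricter filter of FPKM 1 or more in at least 4 libraries, 6 of 12 were lower and 1 higher. The count of lower genes was 12 with a pseudocount of 0.1, 16 without WT replicate 1 of day 15 and 13 without WT replicate 2. At day 0, 6 of the 33 were higher and none lower, with a median of 0.24, and 10 were higher with a pseudocount of 0.1. Under the stricter filter 5 of 12 were higher at day 0, and 1 of the 33 reached FPKM 1 in Hira-null day 0 libraries alone. Beside the counts of this and the following lists, 18.6% of all tested genes were higher and 18.8% lower at day 15, and 20.8% were higher and 19.4% lower at day 0.

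The lowest fold changes of the HOX genes at day 15 belonged to Hoxa10, Hoxd11 and Hoxd10, posterior HOX genes known for limb and trunk patterning. These are among the 13 genes that entered the test through WT alone, so their values are given as a description. Hoxa10 had 0.143 and 0.234 FPKM in libraries labelled Hira-null, against 4.26 and 4.64 FPKM in WT libraries. Hoxd11 had 0.240 and 0.324 FPKM against 3.05 and 3.38 FPKM, and Hoxd10 had 0.425 and 0.738 FPKM against 3.96 and 4.11 FPKM. Of the 2 higher HOX genes, Hoxb9 had 6.53 and 6.50 FPKM in libraries labelled Hira-null, against 2.99 and 2.59 FPKM in WT libraries (0.99, adjusted p = 0.00177). Hoxa7 had 1.15 and 1.13 FPKM against 0.218 and 0.525 FPKM and reached FPKM 1 in day 15 libraries labelled Hira-null alone. The count of higher HOX genes was 1 with a pseudocount of 0.1, the stricter filter, quantile normalization, the replicate block or voom. It was also 1 without either WT library of day 0 or any 1 library of day 15.

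The remaining TALE genes listed were Irx1 to Irx6, Tgif1, Tgif2 and Mkx. At day 15, 4 of the 8 tested were higher and none lower in the libraries labelled Hira-null (median 0.54). At day 0 1 was higher and 1 lower (2 and 2 with quantile normalization, and 2 lower with a pseudocount of 0.1). The lower gene at day 0 was Mkx, with 1.27 and 0.853 FPKM in Hira-null against 2.89 and 3.14 FPKM in WT (-0.97, adjusted p = 0.00201). Irx1 and Irx5 did not pass the test at day 0. Irx1, an Iroquois factor of neural and ventricular patterning, had 11.9 and 15.3 FPKM in day 15 libraries labelled Hira-null. Day 15 WT libraries had 3.55 and 5.01 FPKM (1.47, adjusted p = 0.00243). On that day Irx5 had 7.75 and 11.5 FPKM against 4.81 and 4.72 FPKM (0.86, adjusted p = 0.0249). The tendon factor Mkx then had 4.42 and 5.38 FPKM against 2.52 and 2.32 FPKM (0.78, adjusted p = 0.00731). The count of higher genes was 2 with a pseudocount of 0.1 and without replicate 2 of those labelled Hira-null, 1 without WT replicate 2 and 0 without WT replicate 1 of day 15.

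Partners of PBX or MEIS proteins other than HOX were 25 genes, of which 24 were tested. At day 15, libraries labelled Hira-null had 8 of them higher and 6 lower, with a median of 0.23, and at day 0 3 were higher and 5 lower. The day 15 count of higher genes was 13 with voom, and the day 0 count of higher genes was 1 without either Hira-null library or without WT replicate 1 of day 0. En2, an engrailed factor of the midbrain and hindbrain, had 10.1 and 11.4 FPKM in day 15 libraries labelled Hira-null, against 1.95 and 1.71 FPKM in WT libraries (2.05, adjusted p = 3.76e-05). Dlx5, a factor of the forebrain and branchial arches, had 7.80 and 7.75 FPKM against 1.66 and 2.30 FPKM (1.57, adjusted p = 3.26e-04). Its relative Dlx1 had 6.99 and 4.73 FPKM against 0.878 and 0.829 FPKM, and reached FPKM 1 in day 15 libraries labelled Hira-null alone. At day 0 En2 went the other way, with 2.18 and 2.12 FPKM in Hira-null against 5.03 and 4.95 FPKM in WT (-0.93, adjusted p = 9.15e-04). Dlx5 and Dlx1 did not pass the test at day 0.

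Of the lower partners, Myh10, a non-muscle myosin heavy chain, had 116 and 137 FPKM in day 15 libraries labelled Hira-null, against 191 and 183 FPKM in WT libraries (-0.56, adjusted p = 0.00136). The muscle regulators Myog and Myod1 reached FPKM 1 in day 15 WT libraries alone and entered the test through them, so their values are a description. Myog was listed at 0 in each library labelled Hira-null, against 3.01 and 3.06 FPKM in WT libraries. Myod1 had 0.00 and 0.227 FPKM against 2.0 and 1.66 FPKM.

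Genes described as targets of MEIS, PBX or PKNOX proteins were 29, of which 26 were tested. In day 15 libraries labelled Hira-null, 7 of them were higher and 9 lower, with a median of -0.27. The number lower was 4 without WT replicate 1 or 2 of day 15 and 5 with a pseudocount of 0.1. At day 0, 4 were higher and 5 lower, where 40.2% of all tested genes were called in either direction. Of the 26, 2 reached FPKM 1 in Hira-null day 0 libraries alone and so entered the test through that group. The day 0 count of higher genes was 2 without WT replicate 2 of day 0 or with the stricter filter. The day 0 count of lower genes was 3 without either Hira-null library of day 0, without either WT library of day 15 or with no filter.

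Among the targets, Cd34, a surface protein of blood progenitors and endothelium, had 1.54 and 1.72 FPKM in day 15 libraries labelled Hira-null, against 6.12 and 6.25 FPKM in WT libraries (-1.45, adjusted p = 4.32e-04). Dlx2 had 7.49 and 9.60 FPKM against 2.53 and 2.35 FPKM (1.46, adjusted p = 4.64e-04). The neuronal microtubule gene Dcx had 13.9 and 12.2 FPKM against 4.23 and 5.42 FPKM (1.27, adjusted p = 5.93e-04). Hoxb1, a hindbrain gene, had 0.378 and 0.253 FPKM against 2.66 and 2.01 FPKM and, like Myog, reached FPKM 1 in day 15 WT libraries alone. Some genes stand in more than 1 list, among them Myog, Hoxb1, Dlx1, Dlx2 and Dcx, which is also a neuron marker.

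**Figure D4:**
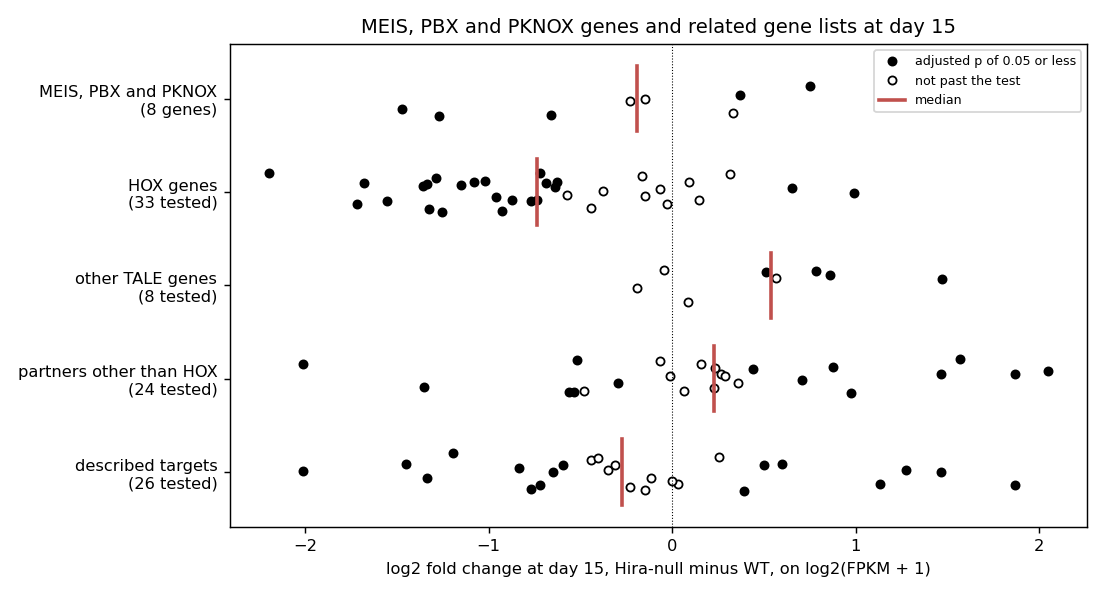
Log2 fold changes at day 15, libraries labelled Hira-null minus WT, on log2(FPKM + 1) (horizontal axis) for the MEIS, PBX and PKNOX genes and 4 related gene lists (vertical axis). Each point is a tested gene, filled where it passed the test, and red bars are medians. HOX genes have a median of -0.73 with 21 of 33 lower, 13 of the 33 having reached FPKM 1 in day 15 WT libraries alone, while the other TALE genes have a median of 0.54 with 4 of 8 higher.

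For each gene past the day 15 test, the genes with the most similar pattern over the 8 libraries were found by the root mean square difference of log2(FPKM + 1) after centring. Meis1 was nearest to Col5a2 (0.27), Wisp1 (0.36) and Nrp1 (0.39), where the median over tested genes was 2.12. Meis2 was nearest to Pde3a (0.17), Frem1 (0.20) and Unc5c (0.21), with a median of 1.83. Meis3 was nearest to Lmcd1 (0.19), Cachd1 (0.19) and Dpysl3 (0.20), with a median of 1.45. No gene stood among the 3 nearest of more than 1 MEIS gene, but lists this short do not show whether their patterns differ. Pbx2 was nearest to Cacna2d2 (0.11), Hr (0.12) and Sun2 (0.12), with a median of 0.68, and Pbx3 to Mmp19 (0.08), Tns2 (0.09) and Rnf157 (0.09), with a median of 0.75. Over the 8 libraries, which fall into 4 groups, Pearson's r for these pairs, which were chosen for their closeness, was 0.97 or more.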

How the data were processed

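RNA was sequenced from 2 biological samples of each genotype and day with a stranded messenger RNA kit in paired-end mode. The authors aligned reads to mm9 with Bowtie 0.12.2, per the submitters' processing notes, which also name DESeq2 1.6.3 for the study's own comparisons. The authors deposited FPKM values for all genes, used here as given. Further deposited tables, 1 per day, hold the authors' fold changes and p-values and were not used. Fragments were recovered from the FPKM steps (99.984% of 19134 genes whole within 0.02 fragment). Of the rows, 5287 were at 0 in every library and 27 symbols had turned into dates.

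The 14337 genes with FPKM of at least 1 in 2 or more of the 8 libraries were fitted as log2(FPKM + 1) with limma 3.58.1 in R 4.3.3. The model held 4 group means over all libraries, a weight per day (1.03 at day 0, 0.968 at day 15) and an empirical Bayes trend. It had 4 residual and 4.70 prior degrees of freedom and Benjamini-Hochberg adjustment at 0.05. This scale understates the change of low genes. Replicates differed by more than counting noise (chi-square per degree of freedom 2.91 to 6.14).

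Genes and lists were chosen with earlier results of these data known. List genes named are up to 3 per direction with the largest fold change past the day 15 test. The fit of counted fragments (voom in limma) and a rescaling to recovered fragments were chosen after seeing the data. Other alternatives changed the pseudocount, filter, scaling, weights, libraries fitted, replicate block or left out a library. ChIP-seq was not analysed here.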

Additional observations from a re-analysis of the deposited data

Results flagged for a closer look

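The genotype difference differed between day 15 and day 0 for 4 of the 8 genes by the interaction term of the limma fit. The same term was called for 35.2% of all tested genes. For Meis2 the difference at day 15 minus that at day 0 was -1.12 on the log2 scale (adjusted p = 0.00333), with both libraries labelled Hira-null below both WT libraries on either day. The Meis2 call was lost with a pseudocount of 0.1 and with voom. For Meis3 it was 1.15 (adjusted p = 0.0238), with both libraries labelled Hira-null above both WT libraries at day 15 and overlapping values at day 0. The Meis3 call held in 9 of 17 alternatives. For Pbx2 it was -0.80 (adjusted p = 0.00192), with a day 15 difference of 0.37 and a day 0 difference of 1.17. For Pbx3 it was -0.77 (adjusted p = 0.00767), with a day 15 difference of -0.66 and a day 0 difference of 0.12. Hira itself had an interaction of 1.37 (adjusted p = 4.44e-04), with a day 15 difference of 0.20 and a day 0 difference of -1.17. The cause of these differences was not tested.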

How the results depend on the processing

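Of 712 alternative values for the 40 gene and comparison pairs, 675 kept their direction and their side of the threshold, 20 lost a call, 7 gained one and 10 changed sign, none of these 10 past the test. Leaving out a library gave 2 to 4 genes called at day 0 (3 with all libraries) and 3 to 5 at day 15 (5), the lowest without WT replicate 2 of day 15. It gave 7 in WT and 6 in Hira-null between the days, and 3 to 4 for the difference between the genotype differences (4). The last count was 2 with a pseudocount of 0.1 and 2 with voom. Pknox1 at day 0 was 0.02 without Hira-null replicate 1 of day 0, 0.08 without WT replicate 2 of day 0 and 0.04 rescaled to recovered fragments. Pbx4 at day 15 ran from -0.47 to 0.02 with a library left out (-0.47 without WT replicate 2, 0.02 without WT replicate 1 of day 15). Between the days in WT it ran from -0.01 to 0.49 (-0.01 without WT replicate 2 of day 0 or replicate 1 of day 15) and was -0.20 with quantile normalization. The Meis1 interaction ran from -0.40 to 0.02 with a library left out (0.02 without WT replicate 1 of day 0) and was 1.11 with a pseudocount of 0.1 and 1.46 with voom. Meis2 at day 0 passed with quantile normalization (adjusted p = 0.0184) and in a fit of the day 0 libraries alone (0.0389). Pknox2 at day 15 passed with voom (0.0348). Between the days in Hira-null, Pbx2 passed as higher (0.00590) and Pbx4 as lower at day 15 (0.0107) with quantile normalization. Meis3 at day 15 was lost with a pseudocount of 0.1 (0.101) and with no filter (0.0699). The cause was not tested.

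Over all genes, calls at day 15 numbered 2673 higher and 2690 lower, against 1323 and 1280 without WT replicate 1 of that day and 1261 and 1370 without WT replicate 2. At day 0 they numbered 2980 and 2785, against 1869 and 1837 without Hira-null replicate 1 and 1974 and 1873 without Hira-null replicate 2. Interaction calls numbered 2511 and 2533, against 1422 and 1471 without WT replicate 1 of day 15 and 1587 and 1692 without WT replicate 2. Rescaling to recovered fragments shifted the median of all genes by 0.11 between the days in WT. Libraries with the same replicate number did not deviate together over all genes (correlations of -0.10 to 0.05). This does not show whether they came from the same experiment. A fit with the replicate block called 3 genes at day 0 and 5 at day 15. It called 7 and 6 between the days in WT and Hira-null, and 4 for the interaction. Planned tests with edgeR and DESeq2 on the recovered fragments were not run, because the deposited unit is FPKM. The voom fit was the only test run on those fragments. Depth limits Meis1, Meis2, Meis3 and Pknox2 at day 0 and Pbx4 throughout.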
